A study of Mus musculus with 21 samples.

Results

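The genes described here are 10 genes of antioxidant defence, *Sod1*, *Sod2*, *Sod3*, *Cat*, *Gpx1*, *Gpx3*, *Gpx4*, *Nqo1*, *Hmox1* and *Gclc*, chosen by name among the 27179 genes that the count tables list. These genes and the gene lists used below were chosen with earlier results of these data known. Their counts beside the shares of all genes are therefore a description only. All 10 had 1 row in the tables of all 21 libraries, and all 10 passed the filter on low counts, which left 16377 genes for testing. The libraries were made from podocyte fractions of wildtype male C57BL/6J mice, which were pulled on magnetic beads from a digest of the cortex by means of nephrin antibodies. The young group was 6 untreated mice of 4 months. The paper's methods describe control mice of this age from an animal tissue archive, and whether the sequenced mice were among them is not stated. The saline group was 7 middle-aged mice and the MCC950 group 8 middle-aged mice, injected for 6 weeks from 18 months of age with saline or with 10 mg/kg of MCC950, an inhibitor of the NLRP3 inflammasome, and collected at 19.5 months. The study asked what changes in podocytes by middle age and what NLRP3 inhibition does to it. Age, the saline injections and any difference in the source of the mice cannot be told apart in the comparison of saline with young mice.

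Superoxide dismutases turn superoxide into hydrogen peroxide, which catalase and the glutathione peroxidases then reduce to water. Glutathione is made by glutamate-cysteine ligase, whose catalytic subunit is *Gclc*, while *Nqo1* and *Hmox1* are classic targets of the transcription factor Nrf2, which binds antioxidant response elements when oxidants release it from Keap1. In the kidney, proximal tubule cells are rich in mitochondria and peroxisomes and are known as the main source of the glutathione peroxidase of plasma, which *Gpx3* encodes. Glomerular podocytes are lost with age and do not divide to replace themselves.

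Total counts were between 27375870 and 36827823 in young, 45772937 and 84876399 in saline and 35440472 and 58247271 in MCC950 libraries, and the saline and young ranges did not overlap. Genes of the mitochondrial genome took 69.3% ± 9.82 of the counts in young (SD, n = 6), 69.6% ± 5.32 in saline (n = 7) and 56.4% ± 4.46 in MCC950 libraries (n = 8), lower with MCC950 than with saline (exact two-sided permutation test, p = 0.000622). All 15 podocyte markers were detected, and so were all 15 markers of the proximal tubule. The podocyte markers summed to between 868 and 1911 counts-per-million (CPM) in young, 333 and 628 in saline and 449 and 749 in MCC950 libraries. The proximal tubule markers summed to between 2168 and 8588 CPM in young, 2316 and 5698 in saline and 3724 and 10372 in MCC950 libraries, so the fractions labelled podocyte held more proximal tubule than podocyte marker RNA. In such bulk libraries, fewer cells of a type and less RNA per cell cannot be told apart.

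Of the 10 genes, *Gpx1*, *Gpx3* and *Gpx4* are marked in GENCODE M21 as encoding selenocysteine, which a TGA codon inside the reading frame specifies. Their coding sequence around that codon is shown because these 3 peroxidases were all higher with MCC950, and the capitals mark the TGA (GRCm38, the build of the alignments, plus strand). The windows are chr9:108339427-108339477 in exon 1 of *Gpx1*, chr11:54907232-54907279 in exon 2 of *Gpx3* and chr10:80054713-80054763 in exon 3 of *Gpx4*.
Gpx1: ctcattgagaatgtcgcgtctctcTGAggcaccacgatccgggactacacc
Gpx3: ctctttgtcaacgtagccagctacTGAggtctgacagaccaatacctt
Gpx4: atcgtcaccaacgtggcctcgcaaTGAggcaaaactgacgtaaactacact

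RefSeq promoter windows of GRCm38.p6, 250 bases before to 50 after a start site, were found for 7 of the 10 genes, *Sod1*, *Sod2*, *Cat*, *Gpx1*, *Gpx3*, *Gpx4* and *Nqo1*. On either strand, the core of the antioxidant response element, TGACNNNGC, lay in 12.4% of all 32851 promoter windows and in 1 of these 7 genes, *Sod1*. The GC box GGGCGG lay in 35.7% of all windows and in a window of each of the 7 genes. The shares are over windows and the counts over genes, and the 7 genes had 10 windows, with several for *Gpx4*. A window of *Gpx4* (chr10:80046916-80047215) held no GC box. The letters CAAAGTCCA, a site of the nuclear factor HNF4 that is active in the proximal tubule, lay in 0.475% of all windows and in 0 of the 7 genes. The promoters of *Sod1* (chr16:90220512-90220811, plus strand, antioxidant response element core in capitals) and of *Gpx3* (chr11:54902604-54902903, plus strand, GC box in capitals) are shown, as the promoter with the element and that of the most abundant gene. A match of letters is a description of the window and not a site of binding. Sites outside these windows were not looked for, so the lack of a match does not mean that a gene lacks the element. No window was found for *Sod3*, *Hmox1* and *Gclc*.
Sod1 promoter: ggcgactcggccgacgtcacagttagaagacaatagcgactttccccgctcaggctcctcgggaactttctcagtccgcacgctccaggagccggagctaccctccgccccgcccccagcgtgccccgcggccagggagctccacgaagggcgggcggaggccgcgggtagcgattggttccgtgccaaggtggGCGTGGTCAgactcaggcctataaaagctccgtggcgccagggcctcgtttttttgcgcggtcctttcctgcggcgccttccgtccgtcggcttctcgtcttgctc
Gpx3 promoter: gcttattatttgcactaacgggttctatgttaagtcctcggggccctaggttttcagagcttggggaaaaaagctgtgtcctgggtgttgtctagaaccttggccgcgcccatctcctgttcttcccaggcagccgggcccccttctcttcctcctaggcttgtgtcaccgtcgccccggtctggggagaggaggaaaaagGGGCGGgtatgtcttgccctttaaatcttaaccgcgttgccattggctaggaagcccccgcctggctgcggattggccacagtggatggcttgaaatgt

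Levels of the 10 genes differed widely. Per kilobase of exon, *Gpx3* stood at 2821 ± 824 CPM in young, 2932 ± 1259.6 in saline and 6150.3 ± 1396 in MCC950 libraries (SD, n = 6, 7 and 8), and ranked first, second and first among 15561 nuclear genes with a known length. Of all reads outside the mitochondrial genes, *Gpx3* alone took 1.37% ± 0.392 in young, 1.38% ± 0.587 in saline and 2.70% ± 0.576 in MCC950 libraries. *Gpx1* came next among the 10, at 345 ± 71.4, 442 ± 128 and 674.3 ± 116.7 CPM per kilobase, followed by *Cat*, at 49.3 ± 15.2, 49.1 ± 11.4 and 72.1 ± 18.3. The libraries of *Gpx3* and *Gpx1*, and those of *Gpx1* and *Cat*, did not overlap within any group. From *Cat* downward each gene overlapped its neighbour in the order, and *Nqo1* was lowest in all 3 groups, at 8.28 ± 2.35, 10.8 ± 2.94 and 12.3 ± 3.63 CPM per kilobase.

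**Figure D1:**
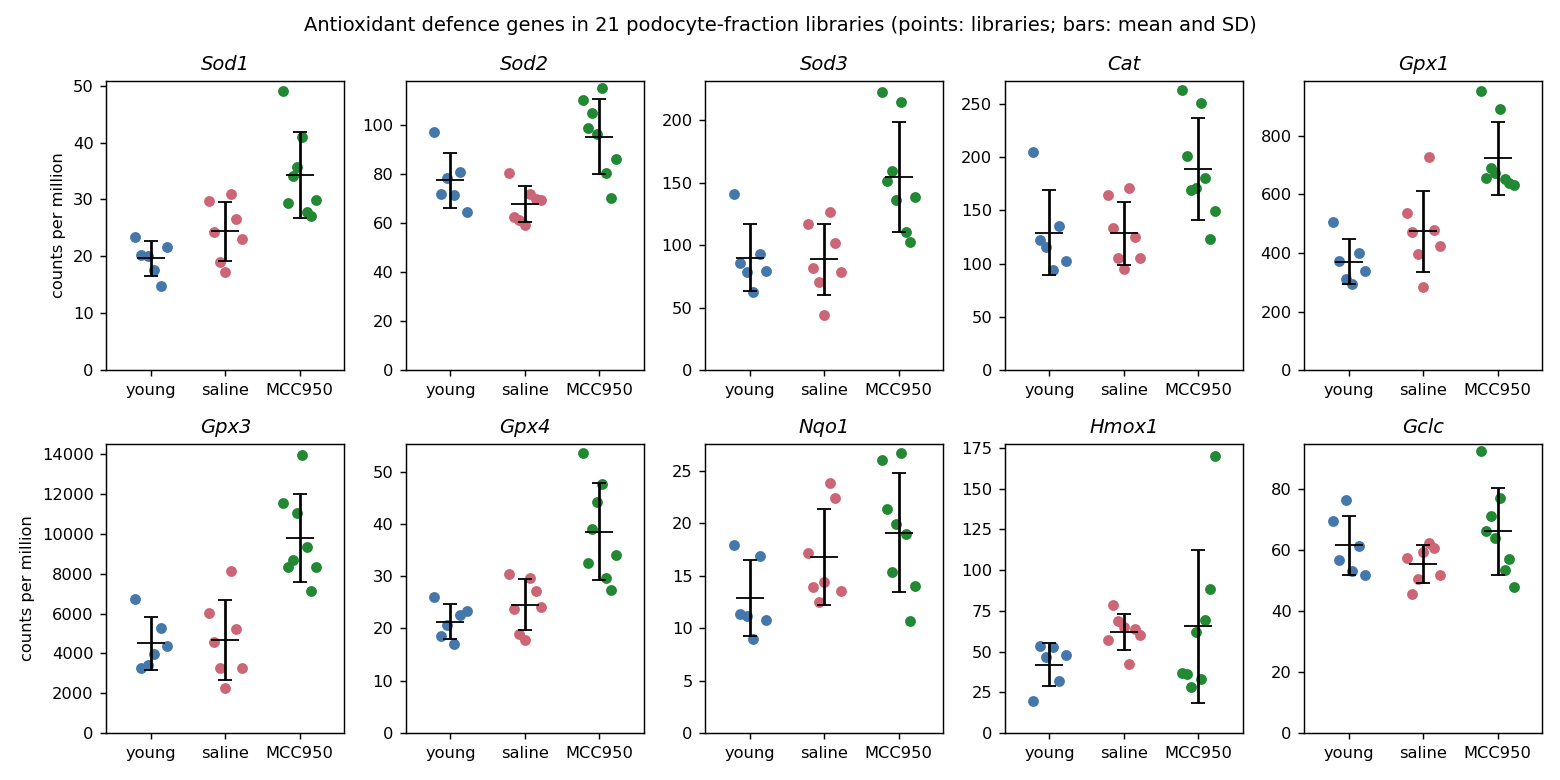
Level in CPM of each of the 10 genes (vertical axes from 0, one scale per gene) in young, saline and MCC950 libraries, 1 point per library, with the mean and SD in black. *Gpx3* in MCC950 libraries lies between 7139 and 13947 CPM with 7 of 8 libraries above the highest saline library, while *Hmox1* has 1 MCC950 library at 170.1 CPM, far above the others.

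With age, none of the 10 genes passed the threshold of an adjusted p under 0.05 (edgeR quasi-likelihood test, Benjamini-Hochberg adjustment over all genes), in either direction, where 24.6% of all genes tested did, 12.2% higher and 12.4% lower. DESeq2 also called 0 of 10, against 26.1% of the genes it tested, and 0 of 10 had an unadjusted p under 0.05 in edgeR, against 36.9% of all genes. Their median log2 fold change in saline against young libraries was 0.13, beside 0.021 over all genes tested, and 6 of 10 were above 0. The largest value was that of *Hmox1*, heme oxygenase 1, which breaks heme down to biliverdin, iron and carbon monoxide. *Hmox1* lay between 19.8 and 53.1 CPM in young libraries (median 47.0) and between 42.6 and 78.4 CPM in saline libraries (median 63.7), with 6 of 7 saline libraries above the highest young library. Its log2 fold change was 0.57 (standard error 0.34, edgeR adjusted p = 0.238), while the difference of the mean log2 CPM had an unadjusted p of 0.0152 in an exact two-sided permutation test, so the 2 tests gave different calls. A macrophage and myeloid score, the mean log2 CPM of 10 markers of those cells, was 6.75 ± 0.82 in young and 7.68 ± 0.43 in saline libraries (p = 0.0186, exact two-sided permutation test). *Hmox1* had its lowest young value in replicate 1 and its lowest saline value in replicate 5, the libraries in which this score was lowest too (5.30 and 6.96), and with the score as a covariate its log2 fold change was -0.19 (edgeR adjusted p = 0.567). Its highest young value was in replicate 2 (53.1 CPM, score 6.90), beside 53.0 CPM in replicate 4, where the score was highest (7.55). Its highest saline value was in replicate 2 (score 8.14), while the score was highest in replicate 3 (8.19). Saline replicate 5 also had the lowest podocyte score (2.91).

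*Nqo1*, a quinone reductase, lay between 8.97 and 17.9 CPM in young libraries (median 11.3) and between 12.4 and 23.9 CPM in saline libraries (median 14.4), and the groups overlapped (log2 fold change 0.39, standard error 0.22, edgeR adjusted p = 0.197). *Gpx1*, the glutathione peroxidase of the cytosol and mitochondria, lay between 293 and 504 CPM in young (median 355) and between 284 and 727 CPM in saline libraries (median 470.4), with both the lowest and the highest value in saline libraries. Its log2 fold change was 0.36 (standard error 0.17, edgeR adjusted p = 0.137), and it passed the threshold without saline replicate 4 (0.47, edgeR adjusted p = 0.0392). For *Sod1*, the copper-zinc dismutase of the cytosol, the log2 fold change was 0.31 (standard error 0.15, edgeR adjusted p = 0.145), and 4 of 7 saline libraries lay above the highest young library. The other 6 genes had log2 fold changes between -0.19 (*Sod2*, standard error 0.11) and 0.20 (*Gpx4*, standard error 0.16), with 95% intervals that included 0. For *Gpx3* that interval ran from -0.47 to 0.58, for *Cat* from -0.41 to 0.39 and for *Sod3* from -0.49 to 0.45, so the intervals allow changes of that size in either direction. The count of 0 with age moved under a covariate. With the proximal tubule score, the mean log2 CPM of its 15 markers, which was 7.06 ± 0.60 in young and 6.88 ± 0.47 in saline libraries, *Sod1*, *Gpx1*, *Gpx4* and *Nqo1* were higher (log2 fold changes 0.36, 0.44, 0.28 and 0.53, edgeR adjusted p from 0.00282 to 0.0429), where 16.6% of all genes were higher, and 4 were higher with the macrophage and myeloid score too, where 10.7% of all genes were higher. The podocyte markers moved strongly in the same comparison, with 14 of 15 lower in saline libraries and a score of 3.72 ± 0.40 against 5.46 ± 0.50 with no overlap between the groups.

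With MCC950, 7 of the 10 genes were higher and none lower than with saline, in a comparison in which 11.9% of all genes tested were higher and 4.86% lower. All 10 had a log2 fold change above 0, with a median of 0.52 beside 0.0028 over all genes tested, and 8 of 10 had an unadjusted p under 0.05, against 31.6% of all genes. DESeq2 called 7 of 10 higher and 0 lower too, against 12.5% and 7.02% of the genes it tested. Libraries of the MCC950 and saline groups overlapped in all 10 genes, whereas 1.74% of all genes tested did not overlap. The markers of the proximal tubule moved the same way. Of their 15 genes 9 were higher and 0 lower with MCC950, and their score, the mean log2 CPM of the list, was 7.76 ± 0.42 (from 6.94 to 8.27) in MCC950 and 6.88 ± 0.47 (from 6.17 to 7.46) in saline libraries (p = 0.00218, exact two-sided permutation test). With this score as a covariate 0 of the 10 genes were called in either direction, in a fit that called 2.38% of all genes higher and 1.86% lower, and the unadjusted p was under 0.05 for 4 of them, *Gpx3*, *Sod2* and *Hmox1* above 0 and *Nqo1* below 0. The part of proximal tubule RNA in the rise was not tested beyond this fit. Podocyte markers rose in part as well, with 5 of 15 higher and 0 lower with MCC950. Their score was 4.18 ± 0.32 in MCC950 and 3.72 ± 0.40 in saline libraries (p = 0.0233, exact two-sided permutation test).

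**Figure D2:**
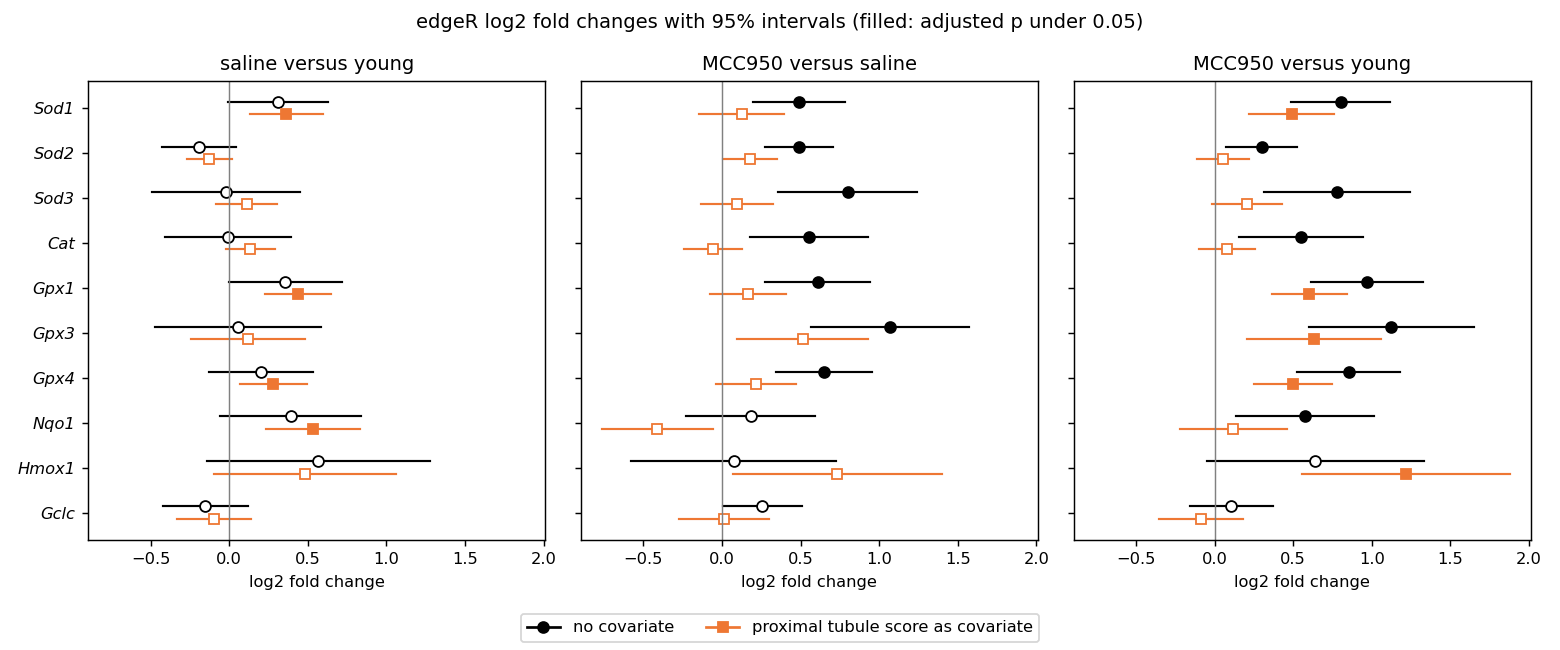
Log2 fold changes (horizontal axis) of the 10 genes in the 3 comparisons, with 95% intervals, from the fit without a covariate (black circles) and with the proximal tubule score as a covariate (orange squares), filled where the adjusted p was under 0.05. Without a covariate 0, 7 and 8 genes passed in saline against young, MCC950 against saline and MCC950 against young, and with it 4, 0 and 5.

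Among the peroxidases, *Gpx3* rose most. It lay between 2246 and 8156 CPM in saline libraries (median 4575) and between 7139 and 13947 CPM in MCC950 libraries (median 9020.1). The lowest saline library was replicate 4 and the highest replicate 5, and only that highest one reached into the MCC950 range. The change was 2.10-fold, or 1.07 on the log2 scale (standard error 0.24, edgeR adjusted p = 0.00745, 95% interval 0.57 to 1.57), and it was 0.51 (95% interval 0.098 to 0.93, edgeR adjusted p = 0.140) with the proximal tubule score as a covariate, the largest of the 7 called genes under that setting. *Gpx4*, which reduces lipid peroxides in membranes and guards against ferroptosis, lay between 17.8 and 30.5 CPM in saline (median 24.02) and between 27.4 and 53.5 CPM in MCC950 libraries (median 36.5). In 6 of 8 MCC950 libraries *Gpx4* was above every saline library, and its log2 fold change was 0.65 (standard error 0.15, edgeR adjusted p = 0.00788). The genome holds the processed copies *Gpx4-ps1* and *Gpx4-ps2*, and how reads shared with them were counted is not given in the sources used here, so the level of *Gpx4* is uncertain. *Gpx1* lay between 631 and 953 CPM in MCC950 libraries (median 664), where 6 of 7 saline libraries were below the lowest MCC950 library and saline replicate 5 was above 6 of the 8 (log2 fold change 0.61, standard error 0.16, edgeR adjusted p = 0.0155).

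All 3 dismutases rose. *Sod3*, which is secreted and acts outside the cell, lay between 44.5 and 127 CPM in saline (median 81.4) and between 102 and 222 CPM in MCC950 libraries (median 145), with 6 of 8 MCC950 libraries above the highest saline library and a log2 fold change of 0.80 (standard error 0.21, edgeR adjusted p = 0.0158). *Sod2*, the manganese dismutase of mitochondria, lay between 59.1 and 80.3 CPM in saline (median 69.4) and between 70.0 and 114.9 CPM in MCC950 libraries (median 97.2). It had the smallest spread of the 10 genes within the saline group, at 10.9% of the mean, and the lowest adjusted p (log2 fold change 0.49, standard error 0.10, edgeR adjusted p = 0.00587). *Sod1* lay between 17.3 and 30.9 CPM in saline (median 24.2) and between 27.2 and 49.1 CPM in MCC950 libraries (median 32.0), and the ranges shared the stretch in which the upper 2 saline and lower 4 MCC950 libraries lay. Its log2 fold change was 0.49 (standard error 0.14, edgeR adjusted p = 0.0234), a call that was lost without saline replicate 3, saline replicate 4 or MCC950 replicate 1 (highest edgeR adjusted p = 0.0580) and with libraries thinned to equal depth (0.0571). Without any 1 of the 21 libraries, *Sod2*, *Sod3*, *Gpx1*, *Gpx3* and *Gpx4* remained higher, with the highest edgeR adjusted p at 0.0403.

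*Cat*, the catalase of peroxisomes, was the call nearest the threshold. It lay between 94.6 and 171 CPM in saline (median 125) and between 123 and 263 CPM in MCC950 libraries (median 176), and the groups overlapped over 3 MCC950 and 4 saline libraries. Its log2 fold change was 0.56 (standard error 0.18, edgeR adjusted p = 0.0390), and the call was lost in 10 of the 21 fits that left out 1 library, which were those without young replicate 2, saline replicates 2, 3, 4, 6 and 7 and MCC950 replicates 1, 2, 4 and 5 (log2 fold change from 0.46 to 0.64 over all 21, highest edgeR adjusted p = 0.100). It was also lost after thinning (edgeR adjusted p = 0.0647). With the proximal tubule score as a covariate its log2 fold change was -0.056 (95% interval -0.24 to 0.13).

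*Gclc*, *Nqo1* and *Hmox1* did not pass the threshold with MCC950. *Gclc* lay between 45.5 and 62.1 CPM in saline (median 57.4) and between 47.9 and 92.3 CPM in MCC950 libraries (median 64.9), with 5 of 8 MCC950 libraries above the highest saline library. Its log2 fold change was 0.26 (95% interval 0.0042 to 0.51, edgeR adjusted p = 0.151). *Nqo1* lay between 10.7 and 26.7 CPM in MCC950 libraries (median 19.5), and the lowest value of both groups was in an MCC950 library (log2 fold change 0.18, 95% interval -0.23 to 0.59, edgeR adjusted p = 0.562). *Hmox1* lay between 28.5 and 170.1 CPM in MCC950 libraries (median 49.5), against 42.6 to 78.4 in saline, and its coefficient of variation was 72.1% with MCC950 and 17.7% with saline. Its log2 fold change was 0.075 (95% interval -0.58 to 0.73, edgeR adjusted p = 0.896), and -0.30 without MCC950 replicate 8. The MCC950 library with the highest *Hmox1*, replicate 8, had the highest macrophage and myeloid score of its group (8.31), and the one with the lowest *Hmox1*, replicate 3, had the lowest (6.27). With the proximal tubule score as a covariate *Nqo1* was at -0.41 (95% interval -0.77 to -0.059, edgeR adjusted p = 0.164) and *Hmox1* at 0.73 (95% interval 0.070 to 1.40, edgeR adjusted p = 0.189).

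**Figure D3:**
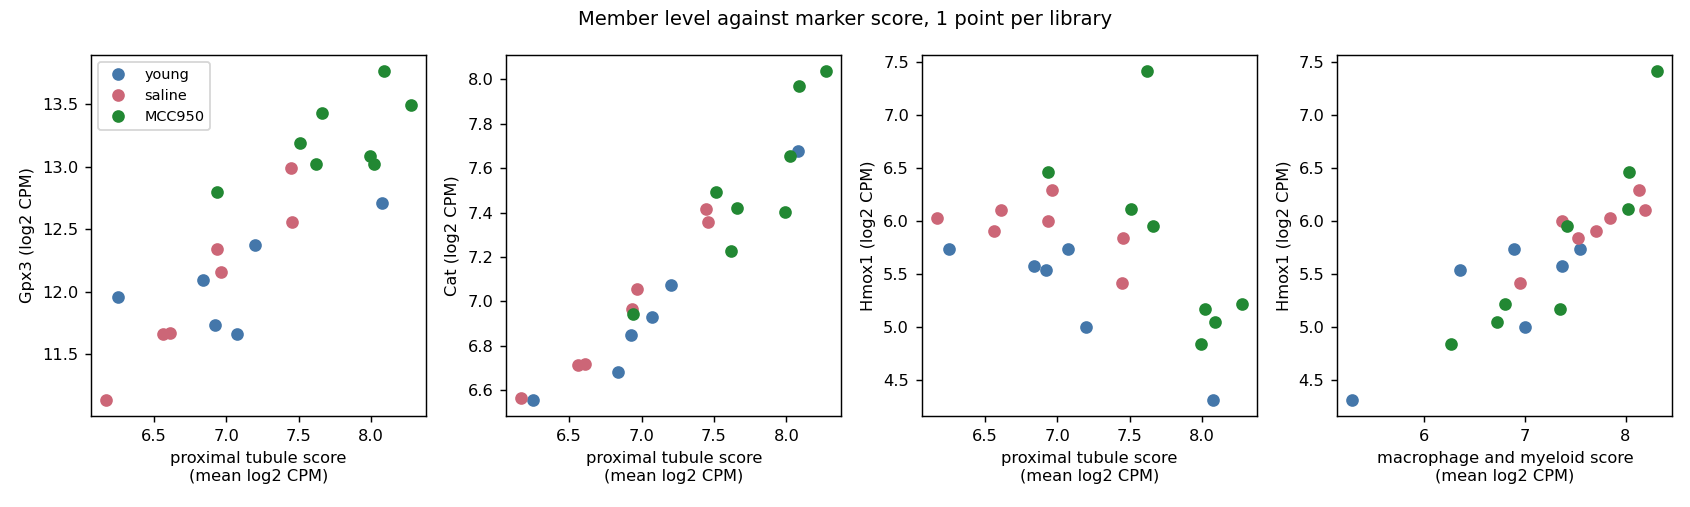
Log2 CPM of *Gpx3*, *Cat* and *Hmox1* (vertical axes) against the proximal tubule score, and of *Hmox1* against the macrophage and myeloid score (horizontal axes, mean log2 CPM of the marker list), 1 point per library. *Cat* is highest in MCC950 replicate 1, where the proximal tubule score is highest too (8.27), whereas *Gpx3* in young replicate 1 (score 8.08) lies below every MCC950 library, and *Hmox1* and the macrophage and myeloid score are both highest in MCC950 replicate 8 and both lowest in young replicate 1.

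The libraries at the ends of each group were the same for many of the 10 genes. In young libraries, *Sod1*, *Sod2*, *Sod3*, *Cat*, *Gpx1*, *Gpx3*, *Gpx4* and *Nqo1* were highest in replicate 1, which also had the highest proximal tubule score of that group (8.08), and in replicate 4, with the lowest score (6.25), 5 of the 10 were lowest (*Sod3*, *Cat*, *Gpx1*, *Gpx4* and *Nqo1*). In saline libraries *Sod1*, *Sod2*, *Sod3*, *Cat*, *Gpx1*, *Gpx3* and *Gpx4* were lowest in replicate 4, with the lowest score (6.17). The score was nearly equal in the top saline libraries, replicates 1 (7.46) and 5 (7.45). *Sod2* and *Gpx4* were highest in replicate 1, and *Sod1*, *Sod3*, *Cat*, *Gpx1*, *Gpx3*, *Nqo1* and *Gclc* in replicate 5. In MCC950 libraries *Sod1*, *Sod2*, *Sod3*, *Cat*, *Gpx3*, *Gpx4* and *Nqo1* were lowest in replicate 7, again the lowest score (6.94), and in replicate 1, with the highest (8.27), *Sod1*, *Sod3*, *Cat*, *Gpx1*, *Gpx4* and *Gclc* were highest. *Hmox1* went otherwise, with its lowest young value in replicate 1, its lowest saline value in replicate 5 and neither of its extremes in MCC950 replicate 1.

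Genes of the most similar pattern were ranked for each called gene by Pearson's r of log2 CPM over the 21 libraries less the group means, among 12414 genes, as a description without a test, since all points share their library's depth and composition. *Gpx3* was most like *Spp2* (r = 0.948) and *Gsta2* (r = 0.937), and *Gpx1* most like *Slc5a10* (r = 0.944) and *Adtrp* (r = 0.930). *Cat* was most like *Cryz* and *Tmbim6* (both r = 0.984). *Sod3* was most like *Tmbim4* (r = 0.968) and *Msra* (r = 0.962), and *Sod2* most like *Uqcrc2* (r = 0.961) and *Atp5b* (r = 0.960), which encode parts of the mitochondrial respiratory chain and ATP synthase. *Gpx4* was most like *Ccdc107* (r = 0.950) and *Hint1* (r = 0.943), *Sod1* most like *Ndufs6* (r = 0.882) and *2310039H08Rik* (r = 0.875), and *Nqo1* most like *Bnip3* (r = 0.943) and *Pxmp2* (r = 0.932). The highest likeness was thus lowest for *Sod1* and highest for *Cat*.

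Against young libraries, 8 of the 10 genes were higher with MCC950 and none lower, where 21.8% of all genes tested were higher and 16.5% lower. This comparison shares its MCC950 libraries with the one above. The median log2 fold change was 0.71, beside 0.080 over all genes tested. In *Sod1*, *Gpx1*, *Gpx3* and *Gpx4* every MCC950 library was above every young library, and 3.28% of all genes tested were higher in this way. Their log2 fold changes were 0.80 (*Sod1*, standard error 0.15, edgeR adjusted p = 0.000384), 0.97 (*Gpx1*, standard error 0.17, edgeR adjusted p = 0.000218), 1.12 (*Gpx3*, standard error 0.25, edgeR adjusted p = 0.00179) and 0.85 (*Gpx4*, standard error 0.16, edgeR adjusted p = 0.000316). *Sod3* at 0.78, *Nqo1* at 0.57, *Cat* at 0.55 and *Sod2* at 0.30 passed with overlapping libraries (edgeR adjusted p from 0.00967 to 0.0367), while *Hmox1* (0.64, edgeR adjusted p = 0.133) and *Gclc* (0.10, edgeR adjusted p = 0.539) did not. In the 21 fits that left out 1 library, the call of *Sod2* was lost in 14, that of *Nqo1* in 8 and that of *Cat* in 6, while *Sod3* kept its call in all of them. *Sod2* also missed the threshold with DESeq2's scaling (edgeR adjusted p = 0.0562), with only the 2 groups compared in the fit (0.0863) and after thinning (0.0853), and *Nqo1* with only the 2 groups (0.0558) and after thinning (0.0504). With the proximal tubule score as a covariate *Sod1*, *Gpx1*, *Gpx3*, *Gpx4* and *Hmox1* passed, at log2 fold changes from 0.49 (*Sod1*) to 1.22 (*Hmox1*), where 21.2% of all genes were higher in that fit. With the podocyte score as a covariate 0 of 10 passed, against 0.232% of all genes higher, in a fit in which that score did not overlap between young and middle-aged libraries. Without any 1 of young replicates 2, 3, 4 and 6 or MCC950 replicates 1 and 5 the number called was 5, where 15.5% to 19.7% of all genes were higher, and *Sod2*, *Cat* and *Nqo1* were the calls lost.

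Other genes of the pathway were described in 7 lists of 64 genes, of which 62 passed the filter and *Gpx2* and *Glrx5* did not. With MCC950 against saline, 21 were higher and 1 lower, in a comparison in which 11.9% of all genes tested were higher and 4.86% lower. Of 10 other genes for the removal of superoxide and peroxide 4 were higher and 0 lower, led by *Ccs*, the copper chaperone of *Sod1* (log2 fold change 0.54, standard error 0.13), and *Prdx1*, a peroxiredoxin (0.47, standard error 0.12). Of 8 genes of glutathione supply 3 were higher and 0 lower, led by *Gss*, glutathione synthetase (0.77, standard error 0.20), and *Ggt1*, which breaks glutathione down at the cell surface (0.73, standard error 0.25). Of 10 genes of the thioredoxin system 6 were higher, led by the methionine sulfoxide reductases *Msra* (0.84, standard error 0.20) and *Msrb1* (0.49, standard error 0.15), and 1 was lower. That gene was *Txnip*, which binds and inhibits thioredoxin and is known to bind NLRP3, at 398 ± 67.4 CPM in saline and 253 ± 34.3 CPM in MCC950 libraries (log2 fold change -0.65, standard error 0.11, edgeR adjusted p = 0.00146).

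Of 8 genes of Nrf2 and its regulators 2 were higher with MCC950, *Mafg*, a small Maf partner of Nrf2 (log2 fold change 0.30, standard error 0.076), and *Sqstm1*, the autophagy adaptor p62 that binds Keap1 (0.29, standard error 0.069). Of 8 genes of NADPH supply 2 were higher, *Idh1* of the cytosol (0.96, standard error 0.17) and the pentose phosphate enzyme *Tkt* (0.24, standard error 0.074). In heme and iron handling 2 of 8 were higher, *Fth1*, the ferritin heavy chain (0.52, standard error 0.091), and the iron importer *Slc11a2* (0.49, standard error 0.11). In the list of sources of reactive oxygen 2 of 10 were higher, the peroxisomal oxidases *Dao* (1.00, standard error 0.23) and *Hao2* (0.87, standard error 0.28). Counts of 2 in lists of 8 or 10 genes are close to the 11.9% of all genes that were higher. The medians of the 7 lists lay between 0.16 (Nrf2 and its regulators) and 0.35 (thioredoxin system), below that of the 10 genes.

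**Figure D4:**
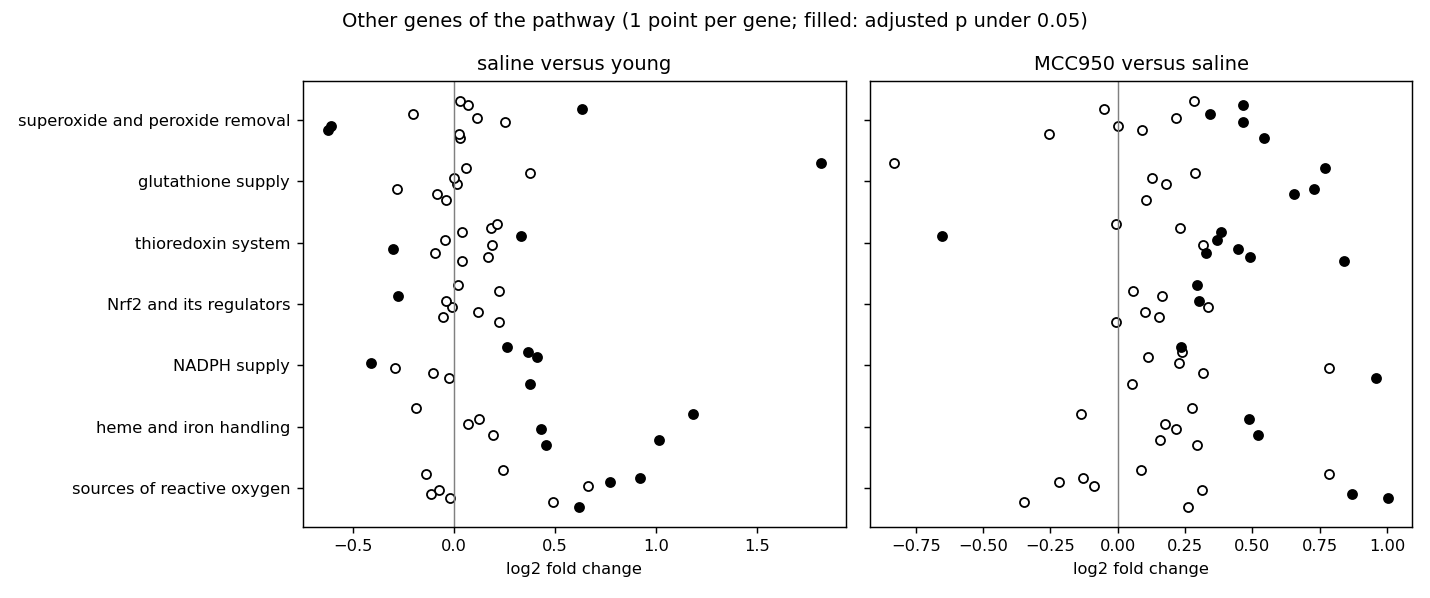
Log2 fold changes (horizontal axes) of the other genes of the pathway, 1 point per gene tested, by list, in saline against young (left) and MCC950 against saline (right), filled where the adjusted p was under 0.05. With age 14 genes were higher and 5 lower, beside 12.2% and 12.4% of all genes tested. With MCC950 21 were higher and 1 lower, beside 11.9% and 4.86%, the point at -0.65 being *Txnip*.

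With age, 14 of the same 62 genes were higher and 5 lower, where 12.2% of all genes tested were higher and 12.4% lower. The largest rise was that of *Slc7a11*, the cystine importer, from 0.492 ± 0.203 to 1.74 ± 1.01 CPM (log2 fold change 1.82, standard error 0.43, edgeR adjusted p = 0.00393). In heme and iron handling 4 of 8 were higher and 0 lower, among them the iron exporter *Slc40a1* (1.19, standard error 0.21) and the biliverdin reductase *Blvrb* (1.01, standard error 0.21), which acts on the product of *Hmox1*. In the list of sources of reactive oxygen 3 of 10 were higher and 0 lower, among them *Ncf4*, a subunit of the phagocyte oxidase (0.92, standard error 0.26). Macrophage and myeloid markers moved in the same comparison, with 2 of 10 higher, 0 lower and all 10 log2 fold changes above 0, and summed levels from 1149 to 4766 CPM in young and from 3347 to 7476 CPM in saline libraries. The part of these cells in the rise of those lists was not tested.

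In NADPH supply 4 of 8 genes were higher with age, led by the pentose phosphate enzymes *Pgd* (0.41, standard error 0.086) and *G6pdx* (0.38, standard error 0.10), and 1 was lower, the transhydrogenase *Nnt* of the mitochondrial inner membrane (-0.41, standard error 0.13). *Prdx4*, the peroxiredoxin of the endoplasmic reticulum, was higher (0.64, standard error 0.12), while *Gpx7* (-0.63, standard error 0.23) and *Gpx8* (-0.61, standard error 0.18), peroxidases of the same compartment, were lower. The level of *Gpx7* was low, at 1.01 ± 0.275 CPM in young and 0.655 ± 0.174 CPM in saline libraries, and its call was close to the threshold (edgeR adjusted p = 0.0480). In the thioredoxin system *Txnip* was higher (0.33, standard error 0.12) and *Srxn1*, which repairs oxidized peroxiredoxins, lower (-0.30, standard error 0.11). Of Nrf2 and its regulators *Mafk*, another small Maf, was lower (-0.28, standard error 0.077) and none was higher. *Nfe2l2*, which encodes Nrf2, did not pass in either comparison, with log2 fold changes of 0.22 with age (standard error 0.13, edgeR adjusted p = 0.221) and 0.057 with MCC950 (standard error 0.12, edgeR adjusted p = 0.783). Values of *Txnip* lay side by side at 317 ± 46.6 CPM in young, 398 ± 67.4 in saline and 253 ± 34.3 in MCC950 libraries, and the saline libraries are shared by both of its comparisons.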

How the data were processed

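The authors trimmed the reads with Trim Galore, aligned them with Bowtie2 to mm10 (GRCm38) and assigned them to genes with featureCounts. The deposited counts are whole numbers, without normalization, for 27179 genes, of which RefSeq named 25275. The annotation release, strand setting and handling of reads with several alignments are not given in the sources used here. The authors' normalized table was not used here. All 6 libraries labelled young were used, although the methods give 5 mice of that age. Samples were grouped by their labels, with no sign of duplicated libraries (lowest chi-square per degree of freedom 13.0). The labels give each library a replicate number and a code in brackets, whose meaning they do not state. The codes of the groups form separate runs, and any difference tied to them was not tested. The paper describes podocytes taken from single mice. The p-values measure only the spread between these libraries. Same-numbered libraries of 2 groups were correlated between -0.14 and 0.40, so the numbers were not treated as pairs.

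The fit used edgeR 4.0.16 (R 4.3.3) with TMM scaling, filterByExpr and the quasi-likelihood F test over all 3 groups, and genes were called at a Benjamini-Hochberg adjusted p under 0.05. A standard error is the size of the log2 fold change over the root of its F statistic. Per-library values are CPM after TMM, and log2 CPM has a prior count of 2. DESeq2 1.42.0 and 11 other settings, and fits without each of the 21 libraries, were alternatives. Permutation tests were exact and two-sided, with the smaller tail doubled (numpy 2.4.6). The workflow was tested on simulated data. All 10 genes are named. Of the other pathway genes, those called are named up to the 2 largest rises and 2 largest falls per list. For each called member the 2 genes of highest likeness are named. The members and lists were chosen with earlier results of these data known. Values of some listed genes are not reported here, and list counts still hold them.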

Additional observations from a re-analysis of the deposited data

Results flagged for a closer look

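In 30 groups (10 genes in 3 groups), the gap between the highest or lowest library and its nearest neighbour, relative to the group's range, was compared with Dixon's critical value, and 2 groups had such a library. Chance gives about 1 in 20. *Cat* in young replicate 1 was at 204.8 CPM, with the next library at 134.9 CPM (gap over range 0.632). This library had the highest proximal tubule score of the young group, and without it the log2 fold change of *Cat* with age was 0.17. *Hmox1* in MCC950 replicate 8 was at 170.1 CPM, with the next library at 88.2 CPM (gap over range 0.579). Without that library the log2 fold change of *Hmox1* with MCC950 against saline was -0.30.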

How the results depend on the processing

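Of 12 other settings, those in which the number of genes called moved by over 1.5 times were these. With the proximal tubule score as a covariate 4 genes were higher with age, 0 with MCC950 against saline and 5 with MCC950 against young. With that of macrophages and myeloid cells 4 were higher with age, and with the podocyte score 0 were higher with MCC950 against young, where 10.7% and 0.232% of all genes were higher, respectively. Without each library in turn the number higher ranged from 0 to 1 with age, 5 to 7 with MCC950 against saline and 5 to 8 with MCC950 against young, and the number lower was 0 throughout. In these fits 8.19% to 13.7% of all genes were higher with age and 15.5% to 22.6% with MCC950 against young. With MCC950 against saline, all genes higher ranged from 1008 of 16320 (without saline replicate 4) to 2392 of 16313 (without MCC950 replicate 7). With replicate number as a block, 2 genes were higher with age, *Gpx1* (0.36, edgeR adjusted p = 0.0311) and *Nqo1* (0.48, edgeR adjusted p = 0.0192), and 8 with MCC950 against saline, *Gclc* included (edgeR adjusted p = 0.0488), while 8 were higher with MCC950 against young as in the fit without the block. The shares of all genes higher with the block were 13.5%, 14.5% and 23.6%. Number 8 occurs only in the MCC950 group, so the block leaves that library no bearing on the log2 fold changes. Same-numbered libraries correlated between -0.14 and 0.33 (MCC950 and saline, 7 pairs), -0.013 and 0.40 (MCC950 and young, 6 pairs) and -0.061 and 0.35 (saline and young, 6 pairs).

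Log2 fold changes that changed sign were not past the threshold under the setting that turned them, and the cause was not tested. In saline against young, they were under the replicate block *Cat* 0.079 and *Sod3* 0.024, under the proximal tubule score *Cat* 0.13 and *Sod3* 0.11, under the macrophage and myeloid score *Cat* 0.39, *Gclc* 0.13, *Hmox1* -0.19, *Sod2* 0.043 and *Sod3* 0.42, under the red blood cell score *Cat* 0.023 and *Sod3* 0.033, after thinning *Cat* 0.025 and *Sod3* 0.0090, and under other filters on low counts *Cat* 0.0029 and 0.0042. Under the podocyte score, which did not overlap between young and middle-aged libraries, they were *Gpx1* -0.70, *Gpx3* -1.46, *Gpx4* -0.61, *Nqo1* -0.54 and *Sod1* -0.29. In MCC950 against saline, they were *Hmox1* -0.38 under the block and -0.030 under the podocyte score, and *Cat* -0.056 and *Nqo1* -0.41 under the proximal tubule score. In MCC950 against young, they were *Gclc* -0.086 under the proximal tubule score, *Hmox1* -0.045 under the macrophage and myeloid score, and *Cat* -0.10, *Gclc* -0.023, *Nqo1* -0.099 and *Sod3* -0.040 under the podocyte score. Without single libraries, values with age ranged from -0.099 to 0.17 for *Cat*, -0.14 to 0.21 for *Gpx3* and -0.13 to 0.15 for *Sod3*, and with MCC950 against saline from -0.30 to 0.19 for *Hmox1*. After thinning to equal depth, *Nqo1* with age was 0.41 (edgeR adjusted p = 0.172) against 0.39 (0.197).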
